A study of Mus musculus with 6 samples.

Results

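Fatty acid and triglyceride synthesis was followed through 37 genes, from the enzymes that make cytosolic acetyl-CoA to the coat of the lipid droplet. They were measured in epidermal sheets of E18.5 mouse embryos, on 3 arrays of Rptor cKO embryos and 3 arrays of wild-type littermates. The genes were taken from a list written by step of the pathway, with the fatty acid elongases left out. A gene was used when a probe set carried its symbol alone, and where several did, the brightest on average across the 6 arrays stood for the gene. This gave 33 of the 37 genes, out of 30063 genes in all. Srebf1, Scd2 and Acsl3 lie on probe sets that name another gene as well, and they and Acsl1 were not analysed here.

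Raptor, the product of Rptor, recruits the substrates of the kinase complex mTORC1, and cKO stands for a conditional knockout. Embryos were sorted by appearance and then genotyped, and the sheets were lifted off the dermis after 10 min in 3.8% ammonium thiocyanate. Neither the promoter that drives the recombinase nor the deleted exons could be given from the labels. Rptor itself read 6.54, 6.82 and 6.72 on Rptor cKO arrays 1 to 3 and 6.98, 7.46 and 7.0 on wild-type arrays 4 to 6. It was lower on every Rptor cKO array, but the difference of -0.46 (SE 0.15, limma adjusted p = 0.0988) was not called, and whether the probe set reads the deleted exons is not known here. By Xist and 3 Y-linked genes, Rptor cKO arrays 1 and 3 came from females and the other 4 arrays from males. The labelled tissue was checked against keratinocyte genes. Negative control probe sets had a median of 3.81 to 4.11 and a 95th percentile of 7.46 to 8.07 on the arrays, which served as guides to background. Krt5, at 11.93 to 12.38, and Krt14, at 10.37 to 10.94, were above that percentile on all 6 arrays. Adiponectin (Adipoq), which marks fat cells, was under the negative control median on 5 of the 6 arrays. Other fat cell markers did not share this, as Plin1, Cidec, Lep and Car3 were above that median on all 6 arrays. Retn was under it on 1 Rptor cKO array and 2 wild-type arrays, and Fabp4 on 1 Rptor cKO array. All levels are log2 RMA values, and all differences are Rptor cKO minus wild type on that scale, with the moderated standard error (SE) of limma and its Benjamini-Hochberg adjusted p over all genes. A difference was called when the adjusted p was under 0.05. Of the genes called lower, Acaca, Scd1, Scd3, Fads2, Acsl4, Gpam and Lpin3 were under the 95th percentile of the negative controls on all 6 arrays. They were above the negative control median on all 6.

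De novo synthesis begins with citrate, which is cut to acetyl-CoA in the cytosol, carboxylated to malonyl-CoA and joined into palmitate with reducing power from NADPH. Palmitate is lengthened, desaturated and activated to acyl-CoA, and acyl-CoA is loaded onto glycerol phosphate to give phosphatidic acid, diacylglycerol and triglyceride. In epidermis these lipids feed the lamellar granules of the upper layers, and triglyceride is a source of the linoleate that goes into acylceramides. mTORC1 is known from other tissues to favour the processing of SREBP1, a transcription factor that switches on much of this pathway together with the promoter proteins Sp1 and NF-Y.

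Upstream sequence is shown for 3 of the genes that fell, picked because their windows carry boxes bound by Sp1 or NF-Y. Acly and Me1 act at the start of the pathway and Tecr in elongation. The windows are the 250 bases before the annotated start, from RefSeq (GRCm38.p6, the assembly also called mm10), each on the minus strand and written 5′ to 3′ along the gene. Acly lies at chr11:100528001-100528250, Me1 at chr9:86695915-86696164 and Tecr at chr8:83594492-83594741. Capitals mark the Sp1 box GGGCGG and the NF-Y box CCAAT, on either strand, so that CCGCCC and ATTGG are their reverse complements.
Acly: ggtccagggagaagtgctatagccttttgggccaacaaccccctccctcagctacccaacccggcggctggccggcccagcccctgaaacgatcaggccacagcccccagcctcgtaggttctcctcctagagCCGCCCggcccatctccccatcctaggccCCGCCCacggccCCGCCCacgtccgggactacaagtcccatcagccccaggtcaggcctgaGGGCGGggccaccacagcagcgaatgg
Me1: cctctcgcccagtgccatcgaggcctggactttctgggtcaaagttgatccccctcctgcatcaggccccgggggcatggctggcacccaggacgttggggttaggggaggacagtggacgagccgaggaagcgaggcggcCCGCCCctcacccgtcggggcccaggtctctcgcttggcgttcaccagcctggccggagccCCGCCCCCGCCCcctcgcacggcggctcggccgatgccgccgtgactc
Tecr: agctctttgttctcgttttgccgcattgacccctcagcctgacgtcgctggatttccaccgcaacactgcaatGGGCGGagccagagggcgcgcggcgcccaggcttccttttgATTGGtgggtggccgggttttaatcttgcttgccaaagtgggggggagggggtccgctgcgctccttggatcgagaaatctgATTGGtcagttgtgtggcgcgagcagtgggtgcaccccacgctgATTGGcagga

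The Acly window holds 4 Sp1 boxes, the Me1 window shown holds 3, and that of Tecr holds 1 Sp1 box and 3 NF-Y boxes. Another Me1 window, at chr9:86687278-86687527, has 0 Sp1 boxes and 1 NF-Y box, and through it Me1 counts as having an NF-Y box. Among genes not called, Acss2 has 4 Sp1 boxes and 1 NF-Y box, and Fasn has 3 NF-Y boxes. The windows of Acaca, Agpat3 and Scd3, which fell, hold neither box. Those of Acaca (chr11:84195188-84195437) and Agpat3 (chr10:78351701-78351950) lie inside the gene spans. For these genes the sequence before the outermost start was not read. Windows were at hand for 27 of the 33 genes and for 11 of the 14 that fell, and some genes have several start sites. An Sp1 box was present for 16 of the 27 genes and for 7 of the 11, against 35.4% of 27025 genes. An NF-Y box was present for 16 of the 27 genes and for 4 of the 11, against 37.5% of all genes. The SREBP element TCACNCCAC was found for Mlxipl alone among the 27, against 1.22% of all genes, and the E-box CACGTG for Lpin2 and Mlxipl, against 6.86%. The motifs were searched on both strands and do not contain one another. A match describes the letters of the window only.

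Of the 33 genes, 14 were lower in Rptor cKO, none rose and 19 were not called. At least 1 gene fell at 6 of the 8 steps, and none among the regulators or at the droplet coat. Of all genes 5.96% were called lower and 3.64% higher, 9.60% together. The largest falls were those of Agpat5 and Dgat2, which act in the loading of glycerol, and of the desaturase Scd1. The median difference of the 33 genes was -0.39, against 0.05 over all genes, and 24 of the 33 lay below 0, against 11549 of 30063. By 2-fold or more, 6 of the 33 fell, where 2.37% of all genes did. At an unadjusted p under 0.05, 18 genes were lower and 4 higher, but the share of all genes at that threshold was not counted. Quantile normalization gave 11 falls and 2 rises, Fads1 and Agpat2, while its calls over all genes were 1457 higher and 1563 lower in place of 1095 and 1791.

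**Figure D1:**
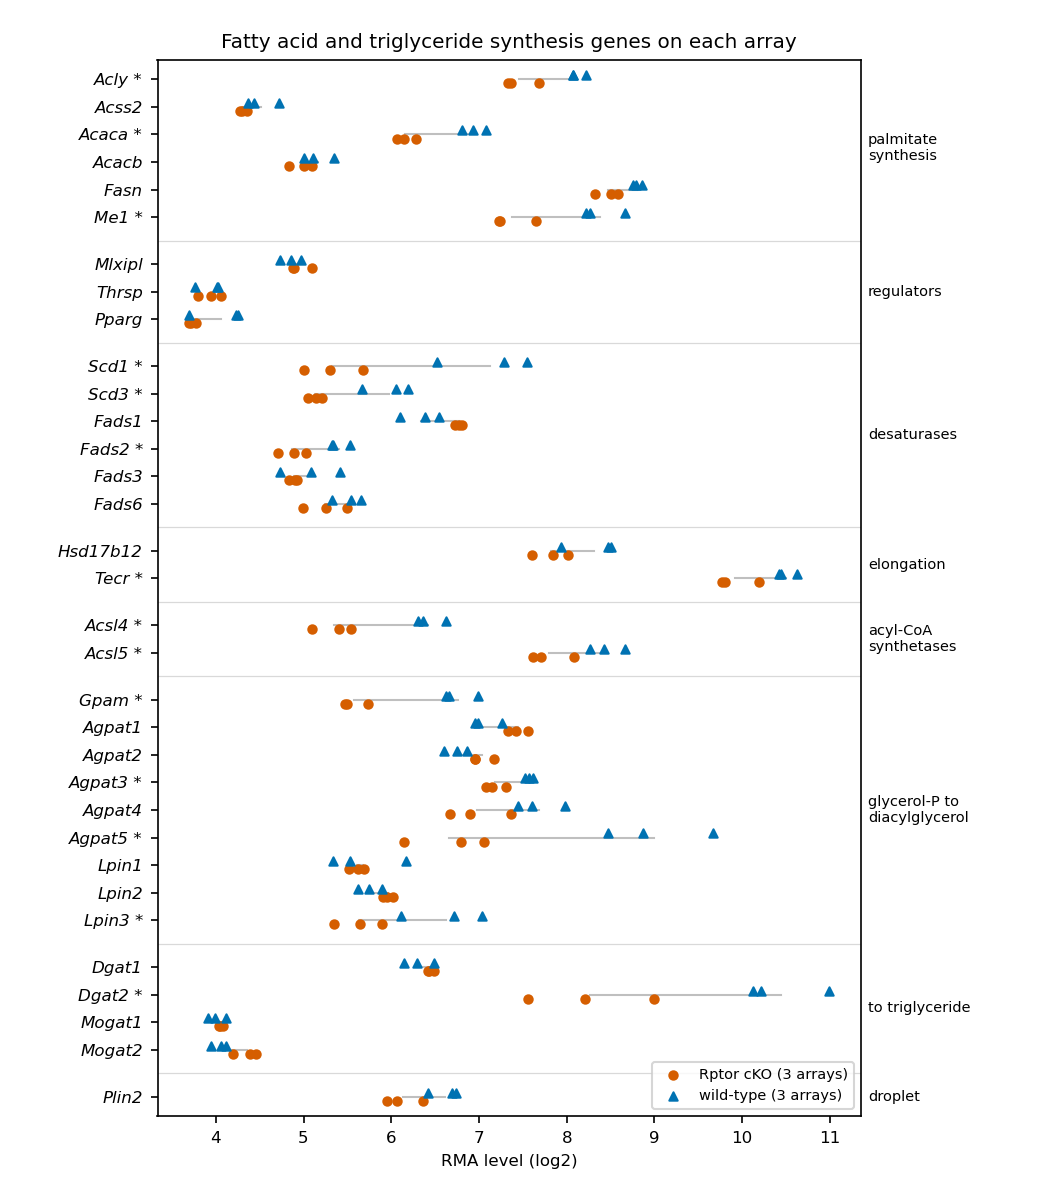
Log2 RMA level (x axis) of each of the 33 genes on the 3 Rptor cKO arrays (circles) and the 3 wild-type arrays (triangles), grouped by step, with a grey line between the group means and an asterisk at genes called lower. The circles of Agpat5, Dgat2 and Scd1 lie farthest to the left of their triangles, while those of Mlxipl, Thrsp and Dgat1 overlap them, and levels of different genes cannot be compared.

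The groups did not overlap for 23 of the 33 genes, 18 of them lower and 5 higher in Rptor cKO. Over all genes that held for 29.0%, with 12.5% in the lower direction and 16.5% in the higher. The 14 genes that fell are among the 18, and their differences stayed negative in each of the 14 alternative settings of the fit. In the fits that leave out 1 array, 8 of the 14 were called every time: Acaca, Me1, Scd1, Scd3, Acsl4, Gpam, Agpat5 and Dgat2. The other 6, Acly, Fads2, Tecr, Acsl5, Agpat3 and Lpin3, each lost the call without Rptor cKO array 2, and all of these but Acly also without Rptor cKO array 1 and wild-type array 5. The number of falls was 8 without Rptor cKO array 2 and 9 without Rptor cKO array 1. With embryo sex as an added term, which rests on Rptor cKO array 2 as the sole male of its group, 5 were called, namely Acaca, Acsl4, Gpam, Agpat5 and Dgat2.

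At the start of the pathway, 3 of 6 genes fell and all 6 had lower means in Rptor cKO. Acly (chromosome 11, 100476352 to 100528000), which cuts citrate to acetyl-CoA, read 7.33, 7.36 and 7.68 on Rptor cKO arrays 1 to 3 and 8.22, 8.07 and 8.07 on wild-type arrays 4 to 6. All 3 Rptor cKO arrays lay below the wild-type arrays, with array 3 the closest, and the difference was -0.66 (SE 0.12, adjusted p = 0.0121). Acaca (chromosome 11, 84129635 to 84401651), the carboxylase that makes malonyl-CoA for synthesis, read 6.15, 6.06 and 6.28 against 6.81, 6.93 and 7.08. The spread within each group was small beside the gap, and Acaca fell by 0.78 (SE 0.11, adjusted p = 0.00513). Me1, the cytosolic malic enzyme that supplies NADPH, read 7.23, 7.24 and 7.65 against 8.66, 8.26 and 8.22. It fell 2.01-fold (-1.0, SE 0.16, adjusted p = 0.00825).

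Fatty acid synthase itself was not called. Fasn (chromosome 11, 120805958 to 120825166), which builds palmitate, read 8.32, 8.50 and 8.58 in Rptor cKO and 8.79, 8.86 and 8.75 in wild type. The groups did not overlap, and the difference was -0.33 (SE 0.099, 95% interval -0.56 to -0.11, adjusted p = 0.076). It passed with array medians subtracted, at -0.37 (adjusted p = 0.0467), and was smaller under quantile normalization, at -0.19 (adjusted p = 0.303). Acss2, which makes acetyl-CoA from acetate, differed by -0.20 (95% interval -0.45 to 0.058). Acacb, the carboxylase at the mitochondrial surface whose malonyl-CoA restrains fatty acid import, differed by -0.18 (95% interval -0.46 to 0.092). Neither passed the test.

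None of the 3 measured regulators passed. Mlxipl, which encodes the carbohydrate-responsive factor ChREBP, differed by 0.10 (SE 0.11, adjusted p = 0.625) and Thrsp, the lipogenic protein Spot14, by 0.0014 (SE 0.11, adjusted p = 0.997). Thrsp was under the negative control median on 2 Rptor cKO arrays and 1 wild-type array, so its values sit at background. Pparg, the nuclear receptor of fat and sebaceous cells, read 3.72, 3.78 and 3.70 in Rptor cKO and 3.70, 4.23 and 4.25 in wild type. All 3 Rptor cKO arrays and 1 wild-type array were below the median of the negative controls, and its difference of -0.32 (SE 0.15, adjusted p = 0.24) was not called. Without wild-type array 4 it was, at -0.50 (adjusted p = 0.0227). The processing of SREBP1 takes place on the protein and is not measured by arrays.

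Of 6 desaturases, 3 fell. Scd1 (chromosome 19, 44394450 to 44407709), which puts the double bond into palmitate and stearate, read 5.00, 5.30 and 5.68 on the Rptor cKO arrays and 6.52, 7.55 and 7.29 on the wild-type arrays. No Rptor cKO array came within the wild-type range, although wild-type array 4 was clearly below the other two. The fall was 3.47-fold (-1.80, SE 0.27, adjusted p = 0.00656). A further probe set of Scd1 read 3.55 to 3.92 against 3.84 to 4.75, close to background, and differed by -0.53. Scd3, a relative with a narrower range of tissues that includes the sebaceous gland, read 5.05, 5.14 and 5.21 against 5.67, 6.19 and 6.05, and fell by 0.84 (SE 0.14, adjusted p = 0.00925). Scd1 and Scd3 are close in sequence and lie in the same gene cluster on chromosome 19, so probes of either may read RNA of the other.

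Of the desaturases of polyunsaturated fatty acids, Fads2 fell and Fads1 was not called. Fads2, which acts at the start of that route, read 4.71, 4.89 and 5.03 in Rptor cKO and 5.34, 5.53 and 5.33 in wild type, a fall of 0.53 (SE 0.11, adjusted p = 0.0238). A further probe set of Fads2 gave a like difference of -0.57. Fads1, which acts later in the route, read 6.81, 6.77 and 6.73 against 6.10, 6.54 and 6.38. Here every Rptor cKO array was above the wild-type arrays, but the difference of 0.43 (SE 0.12, adjusted p = 0.0629) was not called. It passed under quantile normalization, at 0.51 (adjusted p = 0.0337), and without wild-type array 5, at 0.54 (adjusted p = 0.037). Fads1 and Fads2 are 81.4 kb apart on chromosome 19, and Fads3, at -0.19 (95% interval -0.56 to 0.18), lies 2.7 kb from Fads2. Fads6 differed by -0.25 (95% interval -0.59 to 0.08).

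Of the genes that serve the elongation cycle beside the elongases, Tecr fell. Tecr, the reductase that completes each round, read 9.77, 9.80 and 10.19 in Rptor cKO and 10.44, 10.42 and 10.63 in wild type. Arrays 1 and 2 of Rptor cKO lay well below and array 3 closer, for a difference of -0.58 (SE 0.13, adjusted p = 0.0307). Hsd17b12, the ketoacyl reductase of the cycle, read 8.02, 7.60 and 7.84 against 8.47, 7.94 and 8.51. The groups overlapped, and the difference of -0.48 (SE 0.17, adjusted p = 0.13) was not called, though it was without wild-type array 5, at -0.67 (adjusted p = 0.03).

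Both acyl-CoA synthetases that could be read fell. Acsl4, which favours arachidonate, read 5.54, 5.10 and 5.40 on the Rptor cKO arrays and 6.36, 6.30 and 6.62 on the wild-type arrays. The fall was 2.11-fold (-1.08, SE 0.14, adjusted p = 0.00402), with a wide gap between the groups. Acsl4 lies on the X chromosome, and Rptor cKO arrays 1 and 3 were female while all other arrays were male. With embryo sex as a term, which rests on Rptor cKO array 2, its difference was -1.32. Acsl5, a synthetase of endoplasmic reticulum and mitochondria, read 7.71, 7.62 and 8.08 against 8.27, 8.43 and 8.66, a fall of 0.66 (SE 0.15, adjusted p = 0.0299). A second, dimmer probe set named for Acsl5 read 4.68 to 4.90 against 4.53 to 5.09 and differed by 0.049. Averaging both probe sets gave -0.30 (adjusted p = 0.203), so the fall of Acsl5 rests on the brighter probe set.

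**Figure D2:**
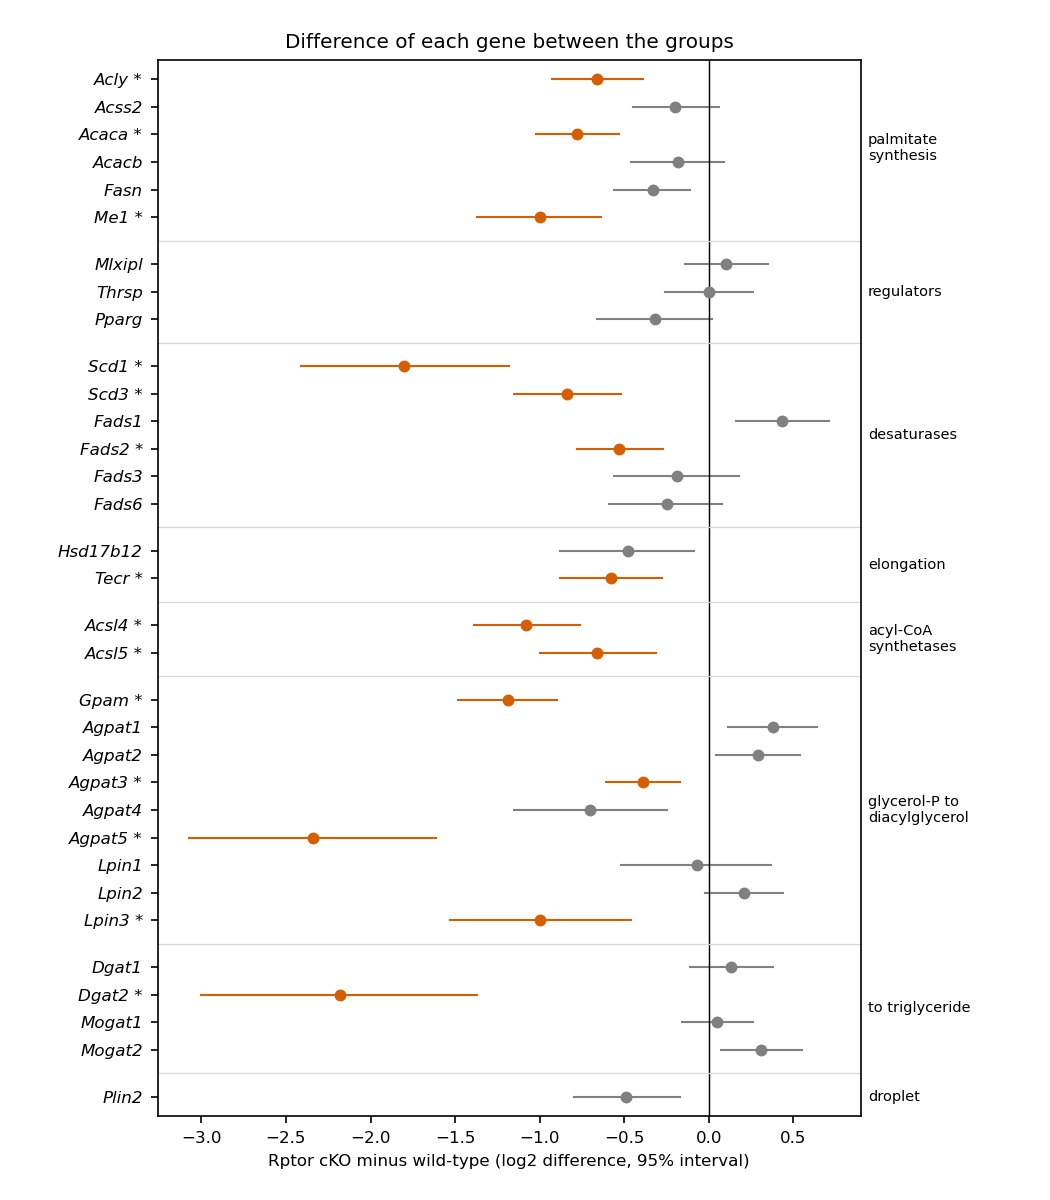
Difference of each gene, Rptor cKO minus wild type in log2 units (x axis), with its 95% interval from limma; the 14 genes called lower are orange and the others grey. Differences run from -2.34 for Agpat5 to 0.43 for Fads1, and the steps differ within themselves, as with Dgat2 against Dgat1.

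Loading of acyl groups onto glycerol held the largest fall. Of 9 genes from glycerol phosphate to diacylglycerol, 4 fell. Gpam (chromosome 19, 55067635 to 55127319), the mitochondrial acyltransferase of the entry step, read 5.47, 5.49 and 5.74 in Rptor cKO and 6.99, 6.66 and 6.62 in wild type. Its groups were far apart beside their spread, and it fell 2.28-fold (-1.19, SE 0.13, adjusted p = 0.00214), the smallest adjusted p of the 33 genes.

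The Agpat genes encode or are named for acyltransferases that make phosphatidic acid, and 2 of 5 fell. Agpat5 (chromosome 8, 18846279 to 18884413) read 6.79, 6.15 and 7.06 against 9.67, 8.47 and 8.87, a 5.06-fold fall (-2.34, SE 0.32, adjusted p = 0.00491). Even the highest Rptor cKO array was well below the lowest wild-type array. Agpat3 read 7.08, 7.15 and 7.31 against 7.52, 7.62 and 7.57, and fell by 0.39 (SE 0.096, adjusted p = 0.0407). Agpat4 read 6.90, 6.67 and 7.37 against 7.98, 7.61 and 7.45. Its groups came close to each other and the difference of -0.70 (SE 0.20, adjusted p = 0.0635) was not called, but without Rptor cKO array 3 it was, at -0.89 (adjusted p = 0.0205).

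Agpat1 and Agpat2 had higher means in Rptor cKO. Agpat1 read 7.33 to 7.56 against 6.95 to 7.26, a difference of 0.38 (SE 0.12, adjusted p = 0.0857), and Agpat2, whose loss causes lipodystrophy, read 6.95 to 7.17 against 6.60 to 6.86, a difference of 0.29 (SE 0.11, adjusted p = 0.151). Their groups did not overlap, but neither was called. Agpat1 was called without wild-type array 5, at 0.47 (adjusted p = 0.0472), and Agpat2 under quantile normalization, at 0.37 (adjusted p = 0.0337).

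The lipins remove phosphate from phosphatidic acid to give diacylglycerol. Lpin3 read 5.35, 5.64 and 5.89 in Rptor cKO and 7.04, 6.72 and 6.11 in wild type, a fall of 1.0 (SE 0.23, adjusted p = 0.0331). Wild-type array 6 lay close to Rptor cKO array 3, and the call held when either was left out. It was lost without Rptor cKO array 1 (adjusted p = 0.0918) or 2 (0.116) and without wild-type array 4 (0.0627) or 5 (0.0849). Lpin1 differed by -0.071 (95% interval -0.52 to 0.37), and Lpin2 by 0.21 (95% interval -0.024 to 0.44).

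At the last step the paired enzymes gave unlike values. Dgat2 (chromosome 7, 99153663 to 99182713), which joins the last acyl group to newly made diacylglycerol, read 8.21, 7.56 and 9.0 on Rptor cKO arrays 1 to 3 and 10.99, 10.12 and 10.21 on the wild-type arrays. Array 3 was the highest of the Rptor cKO group and still lay below every wild-type array. The fall was 4.54-fold (-2.18, SE 0.35, adjusted p = 0.009). Dgat1, the enzyme of the same reaction that also esterifies incoming fatty acids and retinol, read 6.49, 6.43 and 6.42 against 6.15, 6.29 and 6.49. These groups overlapped, and the difference was 0.13 (SE 0.11, 95% interval -0.11 to 0.38, adjusted p = 0.516). Whether the differences of Dgat1 and Dgat2 are unequal was not tested.

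The monoacylglycerol acyltransferases, best known from the intestine, were close to background. Mogat1 differed by 0.049 (95% interval -0.16 to 0.26). Mogat2, 36.4 kb from Dgat2, read 4.20 to 4.46 against 3.95 to 4.12, and its difference of 0.31 (SE 0.10, adjusted p = 0.111) was not called. Plin2, which coats lipid droplets in many cell types, read 5.95, 6.07 and 6.36 in Rptor cKO and 6.42, 6.69 and 6.74 in wild type. The groups touched but did not overlap, and the difference of -0.49 (SE 0.14, adjusted p = 0.0635) was not called. Without Rptor cKO array 3 it was, at -0.61 (adjusted p = 0.0342), and likewise without wild-type array 4, at -0.59 (adjusted p = 0.0417).

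Rptor cKO array 3 lay nearest to wild type for 13 of the 14 genes that fell, the exception being Acsl4. The lowest Rptor cKO value was on array 1 for 9 of the 14 genes and on array 2 for the other 5. The median of the 33 genes, each taken relative to its wild-type mean, was -0.49 on array 1, -0.42 on array 2 and -0.26 on array 3. Array 3 was also the nearest to wild type in the markers of the upper epidermal layers. The mean log2 level of 9 granular layer markers was 7.63, 7.59 and 8.76 on Rptor cKO arrays 1 to 3 and 9.61 to 10.56 in wild type, with 7 of 9 lower and none higher. Leaving out Rptor cKO array 2 gave 3 falls here, and leaving out wild-type array 6 gave 4. All 7 spinous layer markers fell, and their mean was 8.94, 8.69 and 10.12 against 11.08 to 11.51, while 4 fell without Rptor cKO array 2 or without wild-type array 6. Of 7 basal markers, 1 rose (Itgb4) and 1 fell (Krt15), and the mean was 9.08 to 9.43 against 9.20 to 9.50. Fewer cells of a layer and less RNA per cell cannot be told apart in whole sheets, and the part of the layers in the falls of the synthesis genes was not tested.

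**Figure D3:**
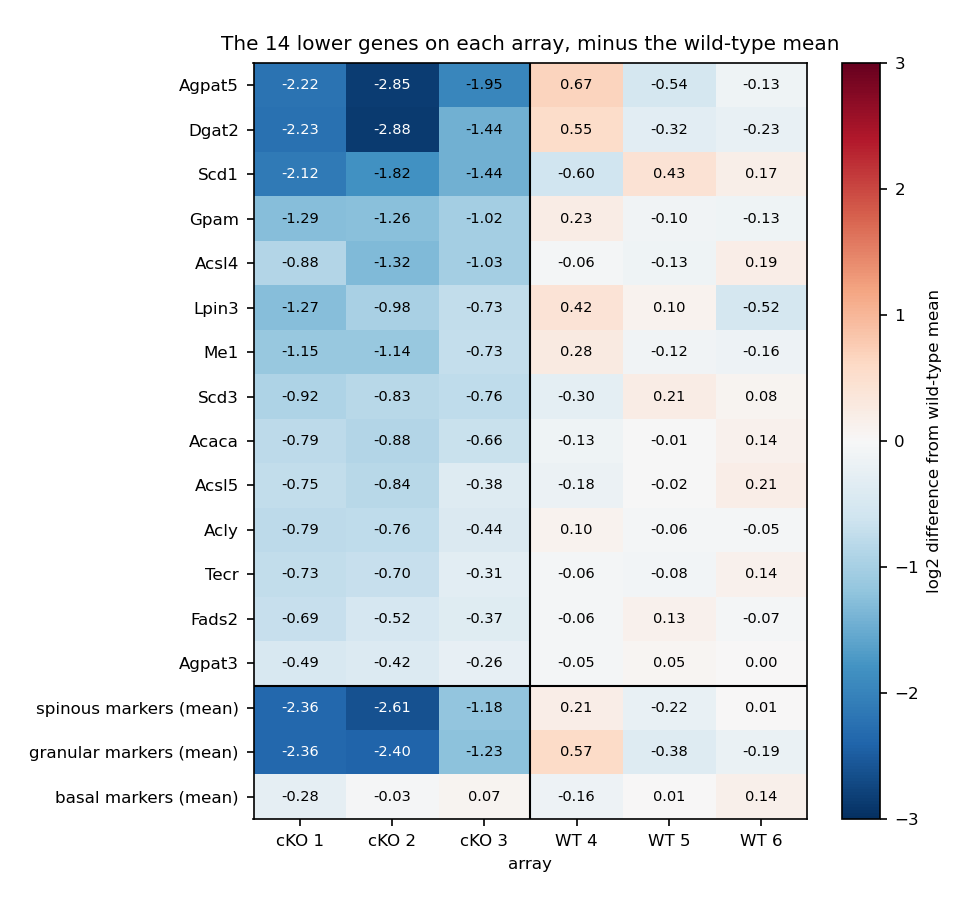
Log2 difference of the 14 genes called lower from their wild-type mean on each array (columns, Rptor cKO 1 to 3 and wild type 4 to 6), with the mean of the spinous, granular and basal marker lists in the bottom rows. Blue is lower and red higher; Rptor cKO array 3 is the palest of its group in 13 of the 14 genes and in the spinous and granular rows.

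Other cell types that a sheet can hold were read in the same way, where 5.96% of all genes were called lower and 3.64% higher. Of 7 fat cell markers none was called, and their mean was 4.17 to 4.42 in Rptor cKO and 4.08 to 4.32 in wild type. Of 9 sebaceous gland markers 2 fell, Scd3 and Awat1, and 7 were not called. The mean of the 9 was 5.38 to 5.68 against 5.87 to 6.07. Scd3 is also one of the synthesis genes, and Awat1 is counted again below, so these markers are not a separate reading. Dermal fibroblast markers were higher, with 4 of 7 called and a mean of 6.45 to 6.99 against 6.00 to 6.20. The number called was 1 when Rptor cKO array 2 or wild-type array 6 was left out, and 2 for Rptor cKO array 1 or wild-type array 5, as well as 2 under either rescaling. None of 6 skeletal muscle and 5 melanocyte markers was called. Among 6 leukocyte markers 2 fell, Ptprc and Csf1r, and 1 did without Rptor cKO array 2 or with dim genes filtered out. Ptprc was under the negative control median on 3 Rptor cKO arrays and 1 wild-type array, so its fall is at background. Among 5 endothelial markers Pecam1 rose, a call lost without Rptor cKO array 1 or 2 or wild-type array 6. With embryo sex as a term, 4 granular and 1 sebaceous marker fell, 1 fibroblast marker rose, and the calls of Krt15, Pecam1, Ptprc and Csf1r were lost. The part of these cells in the results was not tested.

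Further genes around the pathway were read from 7 lists of lipid genes. Their counts stand beside shares over all genes of 5.96% called lower and 3.64% higher. In the control of SREBP, LXR and lipogenesis, 3 of 11 genes fell and none rose. Insig2, which holds SREBP in the endoplasmic reticulum, had a mean of 6.15 ± 0.20 against 7.85 ± 0.62 in the wild-type group (SD, n = 3) and fell 3.25-fold (-1.70, SE 0.27, adjusted p = 0.00854). Insig1, its partner gene and itself a SREBP target, read 5.80 ± 0.36 against 7.0 ± 0.55 (SD, n = 3) and fell by 1.20 (SE 0.28, adjusted p = 0.0316). Srebf2, the SREBP gene of the cholesterol branch, fell by 0.64 (SE 0.16, adjusted p = 0.0452). Leaving out Rptor cKO array 1 or 2 or wild-type array 6 gave a count of 1, and Srebf2 lost its call in 8 of 14 settings. With embryo sex as a term none of the 3 was called.

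Among 8 genes of citrate export and NADPH supply, Pgd of the pentose phosphate pathway fell by 0.84 (SE 0.12, adjusted p = 0.00515) and Idh1, the cytosolic isocitrate dehydrogenase, fell by 0.67 (SE 0.15, adjusted p = 0.0293), and none rose. Idh1 was not called without Rptor cKO array 1 or 2 or without wild-type array 5 or 6, and neither gene was called with embryo sex as a term. Slc25a1, the citrate carrier of mitochondria, read 6.84, 7.25 and 7.42 in Rptor cKO and 7.54, 8.24 and 7.81 in wild type. It is named here after its values were seen, since it stands just before Acly. Its difference of -0.69 (SE 0.20, adjusted p = 0.0707) was not called.

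Further acyltransferases of glycerolipids moved both ways, with 3 of 16 lower and 2 higher. Mboat2, which reacylates lysophospholipids, fell 4.78-fold (-2.26, SE 0.28, adjusted p = 0.00357), while its relative Mboat1 rose 2.13-fold (1.09, SE 0.15, adjusted p = 0.00553). Lpcat2 fell by 0.97 (SE 0.17, adjusted p = 0.012) and Lpcat1, which acts on lysophosphatidylcholine, rose by 0.53 (SE 0.095, adjusted p = 0.0123). Both calls were lost without Rptor cKO array 2, and these and that of Mboat1 with embryo sex as a term. Awat1, a wax synthase related to Dgat2, read 3.77, 3.73 and 3.96 against 6.24, 5.98 and 5.60. It lay under the negative control median on 2 Rptor cKO arrays, so its fall is given as a bound, at least 3.90-fold once values below that median were set to it (difference -2.12, SE 0.16, adjusted p = 0.000928).

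Of 19 further genes of fatty acid activation, dehydration and desaturation, 5 fell and none rose. Fads2b, a gene of the desaturase family, read 4.72, 4.57 and 6.54 in Rptor cKO and 8.20, 8.47 and 8.96 in wild type, the widest gap among these lists (-3.27, SE 0.47, adjusted p = 0.00595). Array 3 stood apart from the other Rptor cKO arrays. Acsbg1, an acyl-CoA synthetase, fell by 1.84 (SE 0.30, adjusted p = 0.00875), and Slc27a4, the fatty acid transport protein whose loss impairs the skin barrier, fell by 1.42 (SE 0.25, adjusted p = 0.0117). The count was 2 without Rptor cKO array 2 and 1 with embryo sex as a term, where Acsbg1 and Slc27a4 were not called. Of 9 genes of fatty acid uptake and binding, Fabp5, the epidermal fatty acid binding protein, fell 3.32-fold (-1.73, SE 0.20, adjusted p = 0.00294) and Dbi, which binds acyl-CoA, fell by 0.62 (SE 0.11, adjusted p = 0.0131). The call of Dbi was lost without Rptor cKO array 2 and with embryo sex as a term, and 4 genes of this list fell without wild-type array 5.

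**Figure D4:**
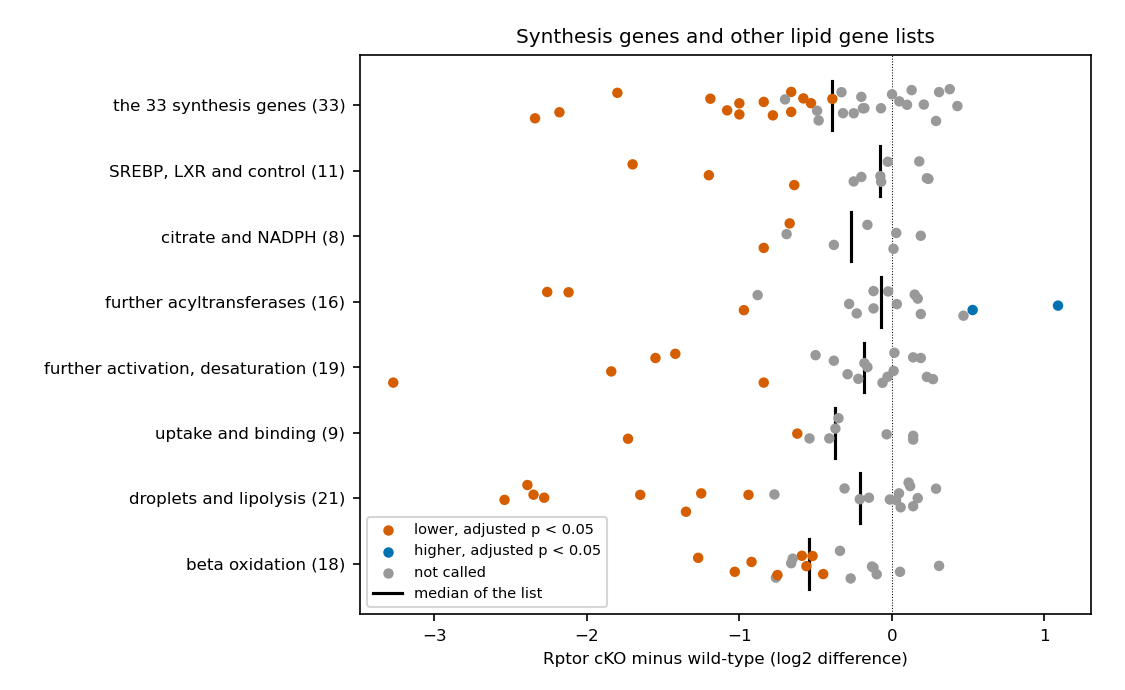
Log2 difference, Rptor cKO minus wild type (x axis), of the 33 synthesis genes and of the genes in 7 other lipid lists (rows, number of genes in parentheses), with the median of each list as a black bar. Orange points were called lower and blue points higher; the medians run from -0.54 for beta oxidation to -0.07 for further acyltransferases, and the blue points, Mboat1 and Lpcat1, all lie in 1 list.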

How the data were processed

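Deposited values are log2 signals of probe sets made by the authors; RMA, Partek and the build mm10 are named per the submitters' processing notes, without versions. RMA usually forces arrays toward a common distribution, which hides a general shift of RNA. Of 72688 probe sets, 6732 were controls and 30604 carried a single gene symbol in the platform's annotation; Entrez IDs and RefSeq synonyms updated 1135 symbols. Differences were fitted with lmFit and eBayes (limma 3.58.1, R 4.3.3) over 30063 genes and 6 arrays with group as the sole term, two-sided, with Benjamini-Hochberg adjustment and a threshold of 0.05; no filter was set on dim genes. The moderation had 4.31 prior degrees of freedom. SDs are over 3 arrays. The fitting procedure was also run on simulated data, drawn independently for each gene and array. Such data lack variation that genes share on an array, so the run does not test the calls made here.

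The 37 genes and the lists were chosen with earlier results of these data known. Each gene called was described with all 6 values, as were Acaca, Acly, Fasn, Scd1, Gpam, Dgat1, Dgat2, Plin2 and Pparg; from other lists up to 3 called genes in each direction were named by smallest p. The series' design text describes biological replicates, and 3 arrays a group limit the precision. An exact permutation test of a single gene could not go below p = 0.1. Array batches were not known. Plots used Python 3.11.15 with matplotlib 3.10.9.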

Additional observations from a re-analysis of the deposited data

How the results depend on the processing

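The number of the 33 genes called lower was 14, and it was 5 with embryo sex as a term and 0 without variance moderation. In that ordinary linear model 16 were lower and 3 higher at an unadjusted p under 0.05. The share of all genes at that unadjusted threshold was not counted. With 1 array left out the number called lower ran from 8 to 16. The number called higher was 0, but 2 under quantile normalization and 0 to 2 with 1 array left out. Over all genes 2886 were called, against 643 with embryo sex as a term, 8 without variance moderation and 900 to 2444 with 1 array left out. The median difference of the 33 genes ran from -0.46 to -0.33 over all settings. The sign turned for 3 genes that were never called: Thrsp, at -0.031 with array medians subtracted, -0.059 under quantile normalization, -0.015 with array weights and -0.084 to 0.069 with 1 array left out; Mogat1, at -0.011 under quantile normalization; and Lpin1, at 0.011 with embryo sex as a term and -0.24 to 0.17 with 1 array left out. The cause was not tested. No paired analysis was possible because the groups share no replicate numbers. With 3 arrays a group, a dim gene near the negative control median has only a rough bound. The alternatives for the other lists were added after seeing the data, and none of their named genes was called without variance moderation.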

Other observations

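Of 18 measured genes of mitochondrial and peroxisomal beta oxidation, 8 were called lower and 0 higher, and the median difference was -0.54. Acox3, a peroxisomal oxidase, read 4.93, 5.13 and 5.23 in Rptor cKO and 6.61, 6.30 and 6.18 in wild type, a 2.41-fold fall (-1.27, SE 0.14, limma adjusted p = 0.0021). Cpt2, the inner carnitine palmitoyltransferase, fell by 1.03 (SE 0.17, limma adjusted p = 0.00887), and Hsd17b4, the bifunctional enzyme of peroxisomes, fell by 0.92 (SE 0.14, limma adjusted p = 0.00697). The count was 2 without Rptor cKO array 2, 5 without Rptor cKO array 1 or wild-type array 6, and 1 with embryo sex as a term.

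Of 21 droplet proteins and lipases, 8 were called lower and 0 higher, and the median difference was -0.21. Abhd5, the lipase cofactor, read 6.69, 6.89 and 7.42 against 8.76, 8.70 and 8.49 and fell 3.14-fold (-1.65, SE 0.18, limma adjusted p = 0.00227). Pnpla3, a lipase of droplets, fell by 1.35 (SE 0.20, limma adjusted p = 0.00595), and Bscl2, which encodes the droplet assembly protein seipin, fell by 0.94 (SE 0.15, limma adjusted p = 0.00796). The other 5 that fell, chosen for naming after their values were seen, were Pnpla1, Lipe, Lipk, Lipm and Lipn, with differences from -2.54 for Lipk to -1.25 for Lipe. The count was 5 without Rptor cKO array 2 and 4 with embryo sex as a term. The droplet coat genes Plin1, Plin3, Plin4 and Plin5 and the droplet fusion genes Cidea, Cideb and Cidec of this list were not called, with differences from -0.31 for Plin3 to 0.17 for Plin4.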
